A study of Mus musculus with 8 samples.

Results

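Motile cilium and axoneme genes were followed in total RNA that laser microdissection had taken from layers II-IV of the neocortex, in mouse pups aged 5 days (postnatal day 5). They were taken from the probe sets that name 1 gene by symbol: those starting with Rsph, Dnah, Dnaic or Cfap, and Wdr66, Foxj1, Hydin, Spag6, Spag16, Spag17, Ccdc39, Ccdc40, Spef2 and Drc1. That gave 63 of the 19938 genes measured, each by the probe set with the highest mean over the 8 arrays. The set was put together knowing that Wdr66, Rsph6a and Rsph14 stood among the lower genes of the genotype comparison, so all differences between genotypes in these genes are a description.

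Each of the 8 pups gave 1 Affymetrix Mouse Gene 1.0 ST array. Of these, 4 pups were labelled Bcl6 mutant (Bcl6 flox/flox;Nex Cre/+) and 4 Bcl6 control (Bcl6 flox/flox;Nex +/+), so the floxed Bcl6 alleles were shared by all pups and the Cre allele was carried by the mutants alone. Nex is another name of Neurod6, a gene of postmitotic excitatory cortical neurons, so glia, ependymal cells and interneurons of the mutants were not the cells in which Cre is made. In such bulk tissue, fewer cells of a type and less RNA per cell cannot be told apart. By its title, the series belongs to work on how projection neurons of the cortex die during development.

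A motile cilium beats through its axoneme, a ring of doublet microtubules around a central pair. Outer and inner dynein arms slide the doublets, radial spokes carry signals from the central pair to the arms, and the nexin-dynein regulatory complex links neighbouring doublets. The transcription factor FOXJ1, with factors of the RFX family, switches on the genes of this structure. In the brain, motile cilia cover the ependymal cells that line the ventricles, while cortical neurons and astrocytes carry a primary cilium, which lacks the central pair and the dynein arms. Many of the genes are also used in the sperm tail.

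RFX factors bind the X-box, an imperfect inverted repeat, and the promoters were searched for it because the set was chosen by name and not by sequence. RefSeq windows of 300 bases (GRCm38.p6, 250 before to 50 after the start of transcription) were at hand for 53 of the 63 genes and for 27025 genes in all. The X-box, read on both strands, lay in the windows of 10 of the 53 genes (18.9%) and of 532 of all 27025 genes (1.97%). These 10 are printed 5′ to 3′ in the direction of the gene, with the match in capitals and 10 bases on each side.
Cfap20dc: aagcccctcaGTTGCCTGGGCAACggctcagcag
Cfap298: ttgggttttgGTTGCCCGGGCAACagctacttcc
Cfap44: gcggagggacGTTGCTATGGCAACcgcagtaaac
Cfap45: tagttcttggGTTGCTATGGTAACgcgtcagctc
Cfap58: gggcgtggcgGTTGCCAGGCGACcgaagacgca
Dnaic1: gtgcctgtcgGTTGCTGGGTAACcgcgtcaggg
Dnaic2: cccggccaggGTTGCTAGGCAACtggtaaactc
Hydin: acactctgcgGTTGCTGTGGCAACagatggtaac
Spag16: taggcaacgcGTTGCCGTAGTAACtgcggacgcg
Spef2: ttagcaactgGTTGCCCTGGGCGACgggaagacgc
On the plus strand these stretches lie at chr16:44394762-44394795 (Cfap44), chr1:172521101-172521134 (Cfap45), chr19:47937643-47937675 (Cfap58), chr4:41569765-41569797 (Dnaic1), chr11:114727376-114727408 (Dnaic2), chr8:110266946-110266979 (Hydin) and chr1:69826857-69826890 (Spag16). On the minus strand they lie at chr14:8666369-8666402 (Cfap20dc), chr16:90935014-90935047 (Cfap298) and chr15:9748836-9748870 (Spef2). All begin with GTTGC, a start that the searched pattern fixes in part, so nothing is read from it. Counted from the start of transcription, the matches begin between base -188 (Cfap298) and base 8 (Spef2). Of Cfap298 and Cfap20dc, which held 4 and 2 overlapping matches over both strands, the first is shown. The mutant minus control differences of these 10 genes ran from -0.15 (Hydin) to 0.10 (Cfap58) on the log2 scale, with a median of 0.0059, and 3 of the 10 were below 0.

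Shorter motifs were searched as well. GTTGCC, which overlaps the X-box, was present in 20 of the 53 genes (37.7%) and 14.1% of all genes, and the forkhead motif GTAAACA in 3 (5.66%) and 4.05% of all. TTCNNAGAA, a BCL6- and STAT-like motif, occurred in 1 (Dnah5; 1.89%) and 6.01% of all, and TTCCTAGAA, which it contains as a special case, in 0 of the 53 and 0.474% of all. The windows of Wdr66, Rsph6a and Rsph14, the genes with the lowest differences, held none of these motifs and no X-box. Their windows are printed whole for that contrast, in lower case because no searched motif is in them, at chr5:123253538-123253837 (plus strand), chr7:19054437-19054736 (plus strand) and chr10:75032537-75032836 (minus strand).
Wdr66: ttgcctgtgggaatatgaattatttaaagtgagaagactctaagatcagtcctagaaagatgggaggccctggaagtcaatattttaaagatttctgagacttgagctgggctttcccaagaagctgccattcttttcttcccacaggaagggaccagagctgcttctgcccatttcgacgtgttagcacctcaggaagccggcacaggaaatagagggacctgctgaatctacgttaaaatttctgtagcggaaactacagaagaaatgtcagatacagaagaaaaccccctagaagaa
Rsph6a: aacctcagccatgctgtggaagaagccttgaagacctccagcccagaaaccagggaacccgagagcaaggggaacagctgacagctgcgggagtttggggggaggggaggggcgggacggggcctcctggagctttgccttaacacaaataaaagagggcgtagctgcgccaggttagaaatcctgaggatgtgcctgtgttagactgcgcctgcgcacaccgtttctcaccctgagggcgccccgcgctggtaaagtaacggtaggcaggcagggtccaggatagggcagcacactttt
Rsph14: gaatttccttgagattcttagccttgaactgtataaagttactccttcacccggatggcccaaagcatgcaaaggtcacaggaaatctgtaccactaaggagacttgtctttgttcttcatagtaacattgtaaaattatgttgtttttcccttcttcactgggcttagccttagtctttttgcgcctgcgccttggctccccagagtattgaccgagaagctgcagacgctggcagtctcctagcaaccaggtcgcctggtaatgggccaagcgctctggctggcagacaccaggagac
A match is a stretch of letters and not a bound site, and a window without one says nothing of the factor.

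The arrays as a whole gave these bearings. The Bcl6 probe set read 6.61, 6.76, 6.96 and 6.78 in the arrays labelled mutant, against 6.55, 6.58, 6.25 and 6.23 in the controls (replicates 1 to 4, log2), higher in the arrays labelled mutant. No source used here tells which of its probes fall within the floxed stretch, so it does not check the deletion. The Nex Cre allele lies at the Neurod6 locus. Neurod6 read 8.84, 9.07, 8.69 and 8.73 in the arrays labelled mutant, against 9.17, 9.41, 9.15 and 9.15 in the controls, with all arrays labelled mutant below all controls, a difference of -0.39 ± 0.093 (SE) that limma did not call over all genes. All directions given are those of the labels. Mutant replicates 1 and 4 stood apart in Xist, the RNA of X inactivation, with 9.78 and 9.76 against 2.64 to 3.41 elsewhere. In the same 2 arrays the Y chromosome gene Eif2s3y read 2.80 and 2.29, against 7.39 to 7.79 elsewhere. Kdm5d, also on the Y chromosome, read 2.69 and 2.92, against 5.47 to 5.94 elsewhere. By these genes those 2 mutants read as female and all controls as male, so sex was not balanced between the genotypes. For some genes, values are therefore also given without those 2 arrays. The 16 layer II-IV neuron markers tested all lay above the median level of all genes (5.55). Their mean ran from 9.26 to 9.41 over the arrays labelled mutant and from 9.14 to 9.48 over the controls. Control replicate 4 was the lowest array in Rorb (9.35, other controls at least 10.32) and Cux2 (8.42, other controls at least 8.89). It was also the lowest in Cux1, Kcnh5 and Rasgrf2. Not all markers did so: the lowest array was control replicate 1 in Slc17a7 (7.55) and mutant replicate 3 in Neurod6 (8.69). Whether the captured tissue differed between arrays was not tested. Over the 19938 genes the limma fit put 3 genes lower and 10 higher in the arrays labelled mutant (adjusted p under 0.05).

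At this age and place most cilium genes gave dim signals. Of the 63, 52 lay under the median level of all genes. Levels of different probe sets depend on their probes, so this is a statement on brightness and gives no order of abundance. The 11 genes at or over that median were Cfap36, Cfap20, Cfap97, Rsph9, Cfap298, Ccdc39, Cfap410, Cfap20dc, Cfap300, Cfap43 and Dnah3. Several of these serve more than motile cilia: CFAP36 binds the ciliary GTPase ARL3, CFAP20 sits at the inner junction of doublets in primary cilia as well, and CFAP410 controls the length of primary cilia. Among the dynein heavy chains, radial spoke heads and central pair proteins of the 63, only Rsph9 and Dnah3 reached the median.

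Markers of the ventricle lining were dim too. Of 18 ependymal markers fixed as a list, 17 lay under the median level of all genes, as did 13 of 13 choroid plexus markers. Tmem212, an ependymal membrane protein gene, read 4.16, 4.18, 4.04 and 3.83 in the arrays labelled mutant, against 3.82, 4.09, 3.86 and 4.11 in the controls. Ccdc153, a coiled-coil gene of ependymal cells, read 4.98, 5.30, 5.33 and 5.23 in the arrays labelled mutant, against 5.31, 5.21, 4.98 and 5.24 in the controls. The groups overlapped in both genes. Ttr, the transthyretin gene that is very abundant in choroid plexus, read 3.71, 3.68, 3.89 and 3.64 in the arrays labelled mutant, against 3.49, 3.70, 3.47 and 3.59 in the controls, again with overlap. Of the 18 ependymal markers 4 also stand in the list of further axoneme genes used later. A difference below 0 was found in 12 of the 18 (median -0.031) and in 10 of the 13 choroid plexus markers (median -0.038). The share was 58.6% in genes under the median level and 55.4% in all genes. Tmem212, Ccdc153 and Ttr had a higher mean in the arrays labelled mutant, unlike most markers of both lists. The ependymal differences ran from -0.41 (Enkur, ± 0.20 SE, with overlap) to 0.17, and the choroid plexus ones from -0.16 to 0.17. Groups did not overlap in 0 ependymal markers. In the choroid plexus list they did not overlap in 2 with mutants below (1.79% of all genes) and 0 with mutants above (0.963% of all genes). The mean of the 18 ran from 4.0 to 4.05 over the arrays labelled mutant and from 4.04 to 4.15 over the controls, and that of the choroid plexus markers from 3.78 to 3.89 over the arrays labelled mutant and from 3.82 to 3.88 over the controls. In the limma fit over all genes 0 of both lists were called, with 1 ependymal marker lower and 1 higher and 1 choroid plexus marker lower at an unadjusted p under 0.05 (4.91% of all genes). No detection calls were used here, so neither list can be said to be absent. The part of these cells in the differences below was not tested.

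**Figure D1:**
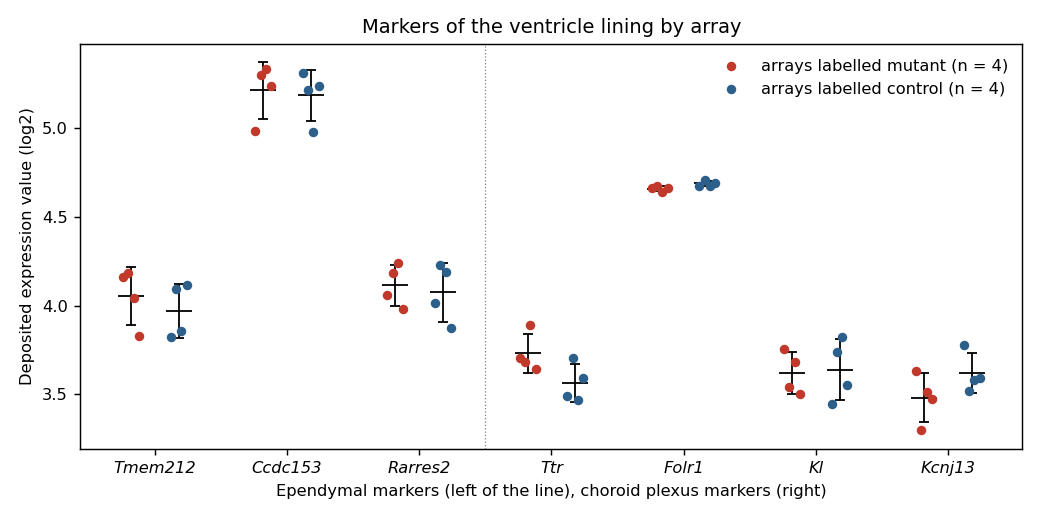
Deposited log2 values (y axis) of 3 ependymal and 4 choroid plexus markers (x axis), with a point per array, 4 labelled mutant left of 4 controls, and bars for the mean and SD. The groups overlap in 6 of the 7 genes; in Folr1, where they do not, the means are 4.66 in the arrays labelled mutant and 4.69 in the controls.

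The genotype comparison asked whether cilium genes in these layers differ between pups labelled Bcl6 mutant and Bcl6 control. In the arrays labelled mutant, 1 of the 63 genes, Wdr66, was called lower in the limma fit over all genes and 0 were called higher. Over all genes 0.015% were called lower and 0.0502% higher. Of the 63 differences, 43 (68.3%) were smaller than 0.1 on the log2 scale in either direction, against 76.7% of all genes, and the median was -0.024. Because the genes were chosen with this contrast known, nothing is read from these counts.

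**Figure D2:**
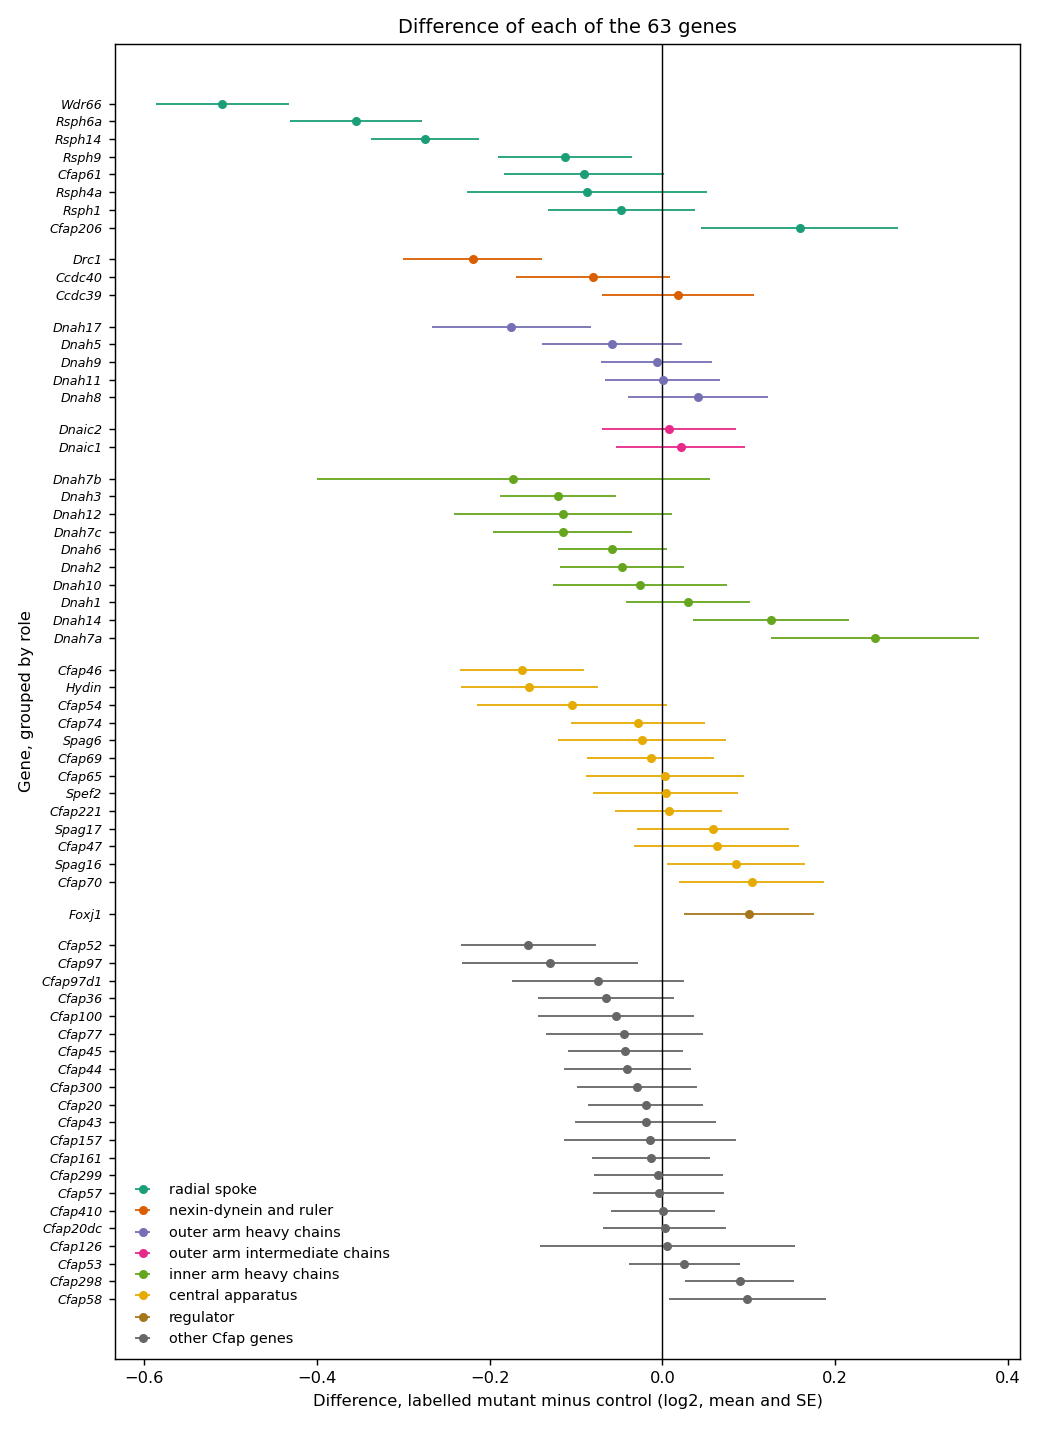
Difference between genotypes (x axis, labelled mutant minus control, log2) for each of the 63 genes (y axis, grouped by role), with a point for the difference and a bar for the SE from the limma fit, n = 4 per group. Wdr66, Rsph6a and Rsph14, at -0.51, -0.35 and -0.27, stand at the low end and Dnah7a, at 0.25, at the high end.

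Radial spoke genes held the lowest differences of the set. Wdr66, also named Cfap251, encodes a WD-repeat protein of the calmodulin- and spoke-associated complex at the spoke base. It read 4.31, 4.53, 4.35 and 4.38 in the arrays labelled mutant, against 4.86, 4.78, 5.05 and 4.91 in the controls (replicates 1 to 4, log2). The groups were fully apart, with the highest mutant at 4.53 and the lowest control at 4.78. The means were 4.39 ± 0.095 in the arrays labelled mutant and 4.90 ± 0.11 in the controls (SD, n = 4 each), a difference of -0.51 ± 0.077 (SE), so that controls held 1.42-fold more. That difference lay between -0.55 and -0.46 in the 18 alternative fits that held the gene. Limma called it in 6 of the 18, among them the same fit read at a threshold of 0.1. It was no longer called after quantile normalization, median centring or cyclic loess, with the replicate block, without any 1 of the 4 mutant replicates, without mutant replicates 1 and 4 together, or without control replicate 1, 3 or 4. Without mutant replicates 1 and 4 the difference was -0.46.

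Rsph6a encodes a spoke head protein known in mouse from the sperm tail. Its values were 4.22, 4.33, 4.21 and 4.52 in the arrays labelled mutant, against 4.64, 4.70, 4.65 and 4.71 in the controls. Again no array labelled mutant reached the lowest control, and mutant replicate 4 came nearest. Rsph14, which is named as a radial spoke component, read 4.01, 3.98, 3.94 and 3.95 in the arrays labelled mutant, against 4.27, 4.14, 4.28 and 4.29 in the controls. The arrays labelled mutant stayed within a narrow band of 3.94 to 4.01, under the lowest control at 4.14. The differences were -0.35 ± 0.076 and -0.27 ± 0.062 (SE, n = 4 per group), and neither gene was called over all genes. They were -0.40 and -0.29 without mutant replicates 1 and 4.

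The other spoke genes gave smaller differences. Rsph9, a spoke head component, read 6.52, 6.58, 6.45 and 6.66 in the arrays labelled mutant, against 6.56, 6.66, 6.61 and 6.84 in the controls. Rsph1, a further head component, read 4.10, 4.11, 4.15 and 4.27 in the arrays labelled mutant, against 4.40, 4.09, 4.05 and 4.28 in the controls. In both genes the groups overlapped, with differences of -0.11 ± 0.077 and -0.047 ± 0.085 (SE). Rsph4a, a spoke head gene of motile cilia and a relative of Rsph6a, was dim and variable at 3.13, 2.56, 2.54 and 2.84 in the arrays labelled mutant, against 2.86, 2.71, 3.19 and 2.65 in the controls. Cfap61, whose product joins Wdr66 in the spoke-base complex of the alga Chlamydomonas, differed by -0.090 ± 0.093. Cfap206 was the only spoke gene with a difference above 0: 5.48, 5.67, 5.62 and 5.68 in the arrays labelled mutant, against 5.05, 5.56, 5.63 and 5.57 in the controls. Control replicate 1 lay far below the other controls there, and without it the difference was 0.025 instead of 0.16. Of the 8 spoke genes 7 had a difference below 0, against 55.4% of all genes. Among the 7 are Wdr66, Rsph6a and Rsph14, which were known to be lower when the set was put together, so nothing is read from this count.

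**Figure D3:**
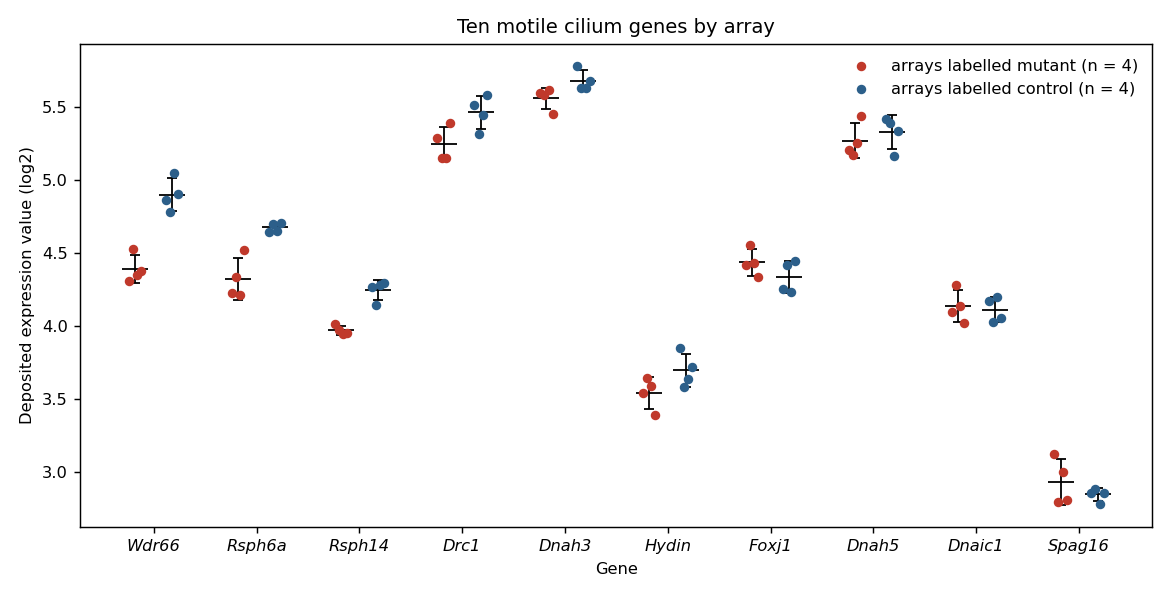
Deposited log2 values (y axis) of 10 cilium genes (x axis), with a point per array, 4 labelled mutant left of 4 controls for each gene, and bars for the mean and SD. The groups are separate in Wdr66, Rsph6a, Rsph14 and Dnah3 and overlap in the other 6 genes.

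Of the genes for links and spacing between doublets, Drc1 had the lowest difference. Drc1 encodes a scaffold of the nexin-dynein regulatory complex. It read 5.29, 5.15, 5.15 and 5.39 in the arrays labelled mutant, against 5.52, 5.32, 5.45 and 5.58 in the controls. The groups overlapped, since mutant replicate 4, at 5.39, lay above control replicate 2, at 5.32, and the difference was -0.22 ± 0.080 (SE). Without mutant replicates 1 and 4 the difference was -0.31, and the mutants left lay below all controls (8.14% of all genes did so). Ccdc39 and Ccdc40, which together form the ruler that spaces spokes and arms along the doublet, gave differences of smaller size. Whether these differ from that of Drc1 was not tested. Ccdc39 read 6.37, 6.43, 6.26 and 6.31 in the arrays labelled mutant, against 6.24, 6.47, 6.11 and 6.48 in the controls. Ccdc40 read 4.32, 4.21, 4.41 and 4.58 in the arrays labelled mutant, against 4.54, 4.44, 4.56 and 4.30 in the controls. Their differences were 0.018 ± 0.088 and -0.081 ± 0.089 (SE), and the groups overlapped in both.

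Outer dynein arm genes lay close to 0. Dnah5, the heavy chain whose loss in humans is a common cause of primary ciliary dyskinesia, read 5.21, 5.17, 5.26 and 5.44 in the arrays labelled mutant, against 5.42, 5.39, 5.16 and 5.33 in the controls. Dnah9, its partner in the distal part of cilia, read 4.37, 4.36, 4.44 and 4.40 in the arrays labelled mutant, against 4.41, 4.49, 4.38 and 4.31 in the controls. Dnah11, the heavy chain of the proximal part, read 3.77, 3.64, 3.76 and 3.59 in the arrays labelled mutant, against 3.67, 3.74, 3.65 and 3.69 in the controls. In all 3 the groups overlapped, with differences of -0.058 ± 0.081, -0.0068 ± 0.064 and 0.00018 ± 0.066 (SE). Dnah17, the outer arm chain of sperm, read 4.13, 3.88, 4.22 and 4.20 in the arrays labelled mutant, against 4.47, 4.16, 4.29 and 4.22 in the controls, a difference of -0.17 ± 0.092 that its other probe set did not share (0.086). Dnah8, also of sperm, differed by 0.041 ± 0.081. Dnaic1, an intermediate chain that tethers the heavy chains, read 4.09, 4.28, 4.14 and 4.02 in the arrays labelled mutant, against 4.17, 4.03, 4.20 and 4.05 in the controls. Dnaic2, the other intermediate chain, read 4.84, 4.79, 4.53 and 4.85 in the arrays labelled mutant, against 4.76, 4.74, 4.75 and 4.72 in the controls. Their differences were 0.021 ± 0.075 and 0.0080 ± 0.078 (SE), and Dnaic2 stood at -0.086 without mutant replicates 1 and 4.

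Inner arm heavy chains spread in both directions. Of 10 genes placed here, 7 had a difference below 0 and 3 above. Dnah3 read 5.59, 5.58, 5.61 and 5.45 in the arrays labelled mutant, against 5.78, 5.63, 5.63 and 5.68 in the controls. The groups were apart but close, with the highest mutant at 5.61 and the lowest control at 5.63, and the difference was -0.12 ± 0.067 (SE). The gene has 33 probe sets, of which 25 gave a difference below 0 and 1 separate groups, with a median of -0.036 and a range of -0.24 to 0.12. The chosen one, with the highest mean level (5.62), therefore gave a larger difference than the typical probe set of the gene, and the next brightest, at 4.88, gave -0.024.

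Dnah7a, Dnah7b and Dnah7c are near-identical copies on chromosome 1, and probes can pick up more than 1 of them. Dnah7a read 3.27, 2.97, 2.64 and 2.80 in the arrays labelled mutant, against 2.64, 2.88, 2.62 and 2.56 in the controls. Dnah7b read 3.01, 4.16, 4.38 and 3.86 in the arrays labelled mutant, against 4.22, 4.01, 4.11 and 3.76 in the controls. The highest difference of the whole set (0.25 ± 0.12, SE) thus came with mutant replicate 1 at the top, and the low one of Dnah7b (-0.17 ± 0.23) with the same array at the bottom. Without mutant replicates 1 and 4 the Dnah7b difference was 0.25, and without mutant replicate 1 alone 0.11. Dnah7a differed by 0.13 without mutant replicate 1. Dnah7c differed by -0.12 ± 0.080. Dnah14 read 3.71, 3.53, 3.52 and 3.60 in the arrays labelled mutant, against 3.46, 3.26, 3.44 and 3.70 in the controls, with overlap. The other inner arm chains were Dnah1, Dnah2, Dnah6, Dnah10 and Dnah12, whose differences ran from -0.12 (Dnah12) to 0.030 (Dnah1).

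Central apparatus genes were balanced around 0. Of 13 genes, 6 had a difference below 0 and 7 above, with a median of 0.0030. Hydin, the giant protein whose loss causes hydrocephalus in mice, read 3.54, 3.64, 3.59 and 3.39 in the arrays labelled mutant, against 3.85, 3.58, 3.63 and 3.72 in the controls. Cfap46, a subunit of a projection of the central pair, read 4.12, 4.28, 4.33 and 4.24 in the arrays labelled mutant, against 4.37, 4.46, 4.30 and 4.49 in the controls. In both the lower values were mostly those labelled mutant, with overlap, and the differences were -0.15 ± 0.079 and -0.16 ± 0.071 (SE). The other probe set of Cfap46 gave -0.019 ± 0.094. Cfap54, of the same projection, differed by -0.10 ± 0.11, and its other probe set by 0.022 ± 0.12.

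The remaining central apparatus genes gave differences smaller in size than that of Hydin. Spag6, an armadillo-repeat protein, read 4.05, 4.47, 4.31 and 4.21 in the arrays labelled mutant, against 4.48, 4.14, 4.24 and 4.27 in the controls. Its close copy Spag6l, not in the set by its symbol, differed by -0.10 ± 0.071 against -0.024 ± 0.10 for Spag6 (SE), and whether they share probes was not tested. Spag16 read 3.12, 2.79, 3.0 and 2.81 in the arrays labelled mutant, against 2.86, 2.88, 2.78 and 2.86 in the controls, and Spag17, its partner in the central pair, read 3.18, 3.57, 3.25 and 3.42 in the arrays labelled mutant, against 3.19, 3.37, 3.27 and 3.37 in the controls. Both overlapped between groups. Spef2, a central pair protein also needed for the sperm tail, read 5.07, 5.10, 4.86 and 5.17 in the arrays labelled mutant, against 5.18, 4.90, 5.06 and 5.04 in the controls. Of its 22 probe sets 11 gave a difference below 0, with a median of 0.00034. Cfap70 had the highest difference among these genes: 3.72, 3.64, 3.81 and 3.97 in the arrays labelled mutant, against 3.68, 3.62, 3.83 and 3.58 in the controls. The differences of Spag16, Spag17, Spef2 and Cfap70 were 0.085 ± 0.080, 0.058 ± 0.088, 0.0037 ± 0.084 and 0.10 ± 0.084 (SE).

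Foxj1, the regulator of the motile cilium programme, did not go with the lowest spoke genes. It read 4.42, 4.56, 4.43 and 4.34 in the arrays labelled mutant, against 4.25, 4.41, 4.23 and 4.44 in the controls. The groups overlapped, and the difference was 0.10 ± 0.075 (SE; 95% interval -0.063 to 0.26). The means were 4.43 ± 0.092 in the arrays labelled mutant and 4.33 ± 0.11 in the controls (SD, n = 4 each).

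The other 21 Cfap genes have mixed roles, among them proteins inside doublets (Cfap45, Cfap52, Cfap53, Cfap77, Cfap126, Cfap161), the tether of an inner arm (Cfap43, Cfap44) and dynein arm assembly (Cfap298, Cfap300). Their differences ran from -0.16 to 0.10 with a median of -0.019, and 19 of 21 were smaller than 0.1 in size. Cfap52, the lowest, read 4.44, 4.77, 4.69 and 4.70 in the arrays labelled mutant, against 4.72, 4.85, 4.80 and 4.84 in the controls. Mutant replicate 1 was the lowest array and mutant replicate 2 lay above control replicate 1, so the groups overlapped. Cfap36 differed by -0.065 ± 0.078, Cfap20 by -0.020 ± 0.067 and Cfap410 by 0.00065 ± 0.060 (SE).

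Seen across arrays, the groups overlapped for the set as a whole in median deviation, but not in mean level. The mean of the 63 ran from 4.488 to 4.524 over the arrays labelled mutant and from 4.532 to 4.555 over the controls. That mean holds Wdr66, Rsph6a and Rsph14, which were known to be lower when the set was put together, so nothing is read from it. Each gene was set against its own mean over the 8 arrays. In mutant replicates 1 to 4, 21, 34, 27 and 30 of the 63 lay above that mean, against 36, 38, 31 and 39 in control replicates 1 to 4. The median deviations were -0.028, 0.024, -0.013 and -0.0021 in the arrays labelled mutant and 0.017, 0.030, -0.011 and 0.034 in the controls (log2). Mutant replicate 2 stood among the controls and control replicate 3 among the mutants. The same median over all genes under the median level ran from -0.017 to -0.0031 in the arrays labelled mutant and from -0.021 to 0.027 in the controls.

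**Figure D4:**
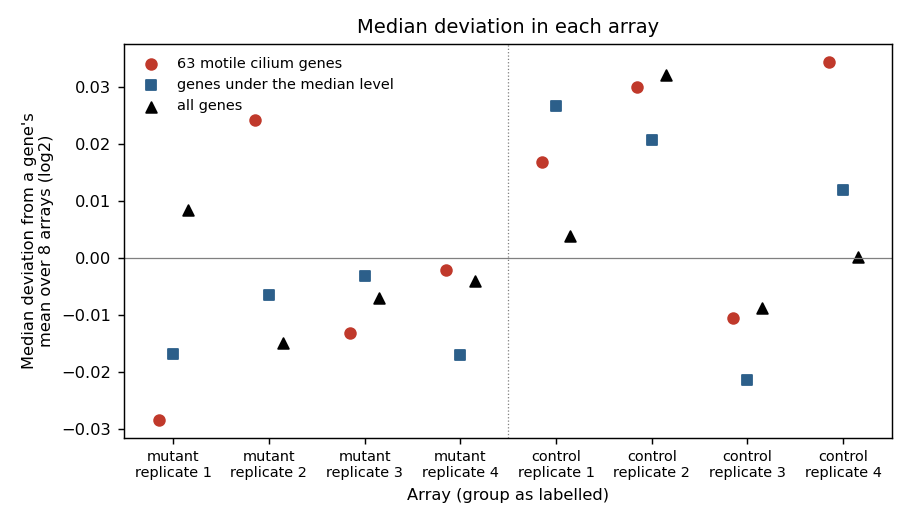
Median deviation of genes from their own mean over 8 arrays (y axis, log2) in each array (x axis, 4 labelled mutant left of 4 controls), for the 63 cilium genes, genes under the median level and all genes. The cilium genes run from -0.028 in mutant replicate 1 to 0.034 in control replicate 4, and mutant replicate 2 and control replicate 3 fall on the side of the other group.

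The set was then read against the rest of the array. Differences below 0 made up 40 of the 63 (63.5%), against 58.6% of the 9969 genes under the median level and 55.4% of all. The median difference was -0.024 in the set, -0.021 in genes under the median level and -0.0096 in all genes. After quantile normalization the set's median was -0.016 and after cyclic loess -0.0063, against -0.0061 and -0.0013 for all genes. Groups that did not overlap were found in 4 genes with mutants below (Wdr66, Rsph6a, Rsph14 and Dnah3; 1.79% of all genes) and in 0 with mutants above (0.963% of all genes; 2.75% in either direction). The median SD within groups of the set was 0.11 in the arrays labelled mutant and 0.11 in the controls, against 0.10 in the arrays labelled mutant and 0.10 in the controls over all genes.

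**Figure D5:**
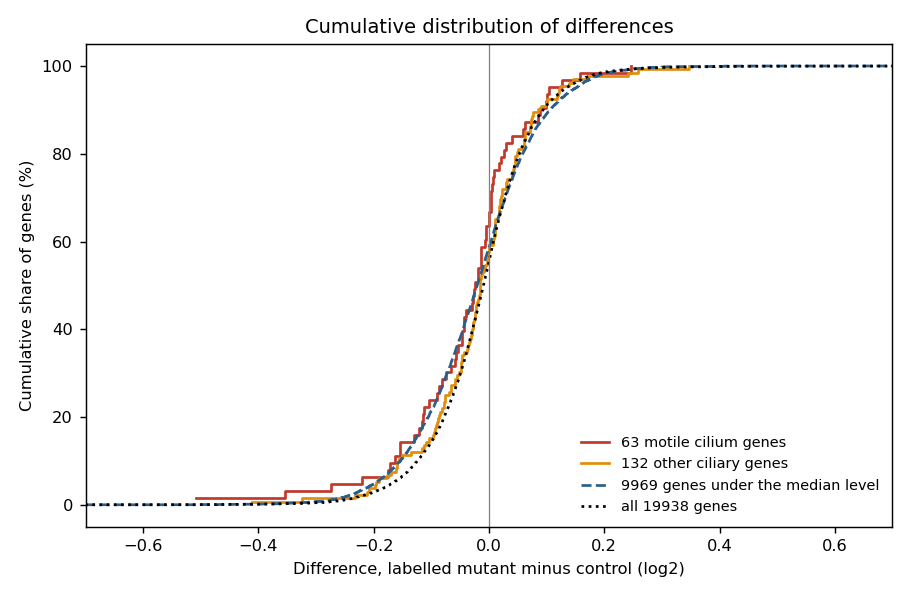
Cumulative share of genes (y axis, percent) by difference between genotypes (x axis, labelled mutant minus control, log2) for the 63 cilium genes, 132 other ciliary genes, genes under the median level and all genes. The 4 curves cross 0 at 63.5%, 58.3%, 58.6% and 55.4%, and the low tail of the cilium genes is made of Wdr66, Rsph6a and Rsph14.

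Other ciliary genes were taken from 4 lists, and 132 of 154 listed symbols outside the set were measured. In limma 0 of the 132 were called in either direction (0.0652% of all genes were), with 6 lower and 2 higher at an unadjusted p under 0.05 (3.28% and 1.64% of all genes). Their median difference was -0.016. Groups did not overlap in 2 genes with mutants below (Zmynd10 and Bbs9; 1.79% of all genes) and in 2 with mutants above (Tekt3 and Ahi1; 0.963% of all genes).

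Regulators of ciliogenesis (17 genes) had a median difference of 0.021. The smallest p-values belonged to Trp73 (-0.19 ± 0.074, SE), a p53 family factor of multiciliated cells, Myb (0.15 ± 0.077), a transcription factor of early multiciliogenesis, and Mcidas (0.12 ± 0.069), the multicilin gene. Dynein arm assembly factors (14 genes) had a median of -0.053. Zmynd10, a zinc-finger assembly factor, read 4.03, 4.04, 3.87 and 3.92 in the arrays labelled mutant, against 4.26, 4.06, 4.24 and 4.13 in the controls, without overlap. Dnaaf6 differed by 0.35 ± 0.11 and Dnaaf5 by -0.16 ± 0.086 (SE). Dnaaf6 lay at 2.12 in the arrays labelled mutant and 1.77 in the controls, among the dimmest values given here.

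Further axoneme genes (46 genes) had a median of -0.018. Tekt3, of the tektin filaments inside doublets, read 3.92, 3.81, 3.78 and 3.92 in the arrays labelled mutant, against 3.70, 3.72, 3.29 and 3.68 in the controls, with all arrays labelled mutant above all controls. Tekt1, of the same family and an ependymal marker here, differed the other way by -0.20 ± 0.083, and Ttll9, a tubulin-modifying enzyme, by -0.17 ± 0.067 (SE). Genes of the primary cilium and of intraflagellar transport (55 genes) had a median of -0.016, and 50 of them differed by less than 0.1. Sstr3, the somatostatin receptor of neuronal cilia, read 5.06, 4.72, 5.20 and 5.10 in the arrays labelled mutant, against 5.46, 5.14, 5.60 and 5.19 in the controls, with overlap and a difference of -0.32 ± 0.12 (SE). Wdr35, of the retrograde transport complex, differed by -0.20 ± 0.080 and Ift80, of the anterograde one, by -0.16 ± 0.083.

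Markers of other cells in the captured layers gave 0 calls in limma. Astrocyte, microglia, oligodendrocyte lineage, interneuron and endothelial markers had median differences of 0.030, -0.12, 0.032, 0.0037 and 0.021, over 13, 11, 11, 12 and 9 genes. At an unadjusted p under 0.05 there were 2 lower microglia markers (Fcer1g and P2ry12; 3.28% of all genes were lower), 2 higher oligodendrocyte lineage markers (Bcas1 and Cnp) and 1 higher interneuron marker (Reln; 1.64% of all genes were higher), and 0 among astrocyte and endothelial markers. The mean of the microglia markers ran from 4.50 to 4.59 in the arrays labelled mutant and from 4.55 to 4.75 in the controls. Their part in the differences of the cilium genes was not tested.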

How the data were processed

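The values used are the log2 expression values deposited by the authors, 35556 probe sets by 8 arrays. BRB-ArrayTools was used per the labels, and no source used here gives the background correction, normalization or summarization. That the scale is log2 was read from the values, which run from 0.74 to 13.63. Of 23410 annotated probe sets, 21789 named 1 gene, with symbols of GRCm38.p6 through the Entrez identifier (21698 matched), and 1621 named several. The probe set of highest mean was kept per gene, which left 19938 genes. Rsph3a and Rsph3b share probe sets and are not among the 63. No filter on dim genes was applied, and the number of arrays limits the precision.

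The genotype comparison used limma 3.58.1 under R 4.3.3 (lmFit and eBayes with genotype alone, two-sided), with Benjamini-Hochberg adjustment over 19938 genes and a threshold of 0.05. The step was tested on simulated data. Differences are mutant minus control. The set, the gene lists and the alternatives were chosen with earlier results of these data known. Genes named with values in each array were those called, the 8 lowest and 5 highest differences, and fixed genes of each role. Of other lists the 3 genes of smallest p, and fixed ventricle markers, were eligible, and Dnah3 was added after its values were seen because its groups did not overlap. The X-box was added to the motifs later.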

Additional observations from a re-analysis of the deposited data

Results flagged for a closer look

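In each of the 63 genes, the 4 arrays of a group were examined for a value far from the other 3. Of 126 groups 2 held such an array (1.59%, where chance gives about 1 in 20). In Cfap206 control replicate 1 read 5.05, against 5.56 to 5.63 in the other 3 controls. In Cfap36 control replicate 1 read 8.97, against 9.21 to 9.25 in the other 3 controls.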

How the results depend on the processing

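Over all genes 10 were called higher and 3 lower, and in the cilium set 0 and 1. The call of Wdr66 held with array weights, with a trended or robust prior, with the mean of probe sets, and without control replicate 2. It also held with a threshold of 0.1, which a gene called at 0.05 in the same fit passes by construction. Wdr66 has 1 probe set, so the mean of probe sets left its own values unchanged. The genes of the set called lower numbered 0 after quantile normalization, median centring and cyclic loess (1 gene lower over all genes). With dim genes left out the number was also 0, since Wdr66 itself is removed: at a mean of at least 5 (16 of the 63 kept) and at the median level (11 kept; 1 gene lower over all genes), 1 cilium gene had all mutant values below all controls (1.37% and 1.34% of the genes kept). Without mutant replicates 1 and 4, 2 genes were called higher and 0 lower by limma (at an unadjusted p under 0.05, 347 higher and 562 lower), 0 of the called genes in the set, and 8 cilium genes had all mutants below all controls (8.14% of all genes). Leaving out each array gave 3 to 9 genes higher and 0 to 4 lower, 0 to 1 cilium genes lower and 0 higher, 4 to 6 cilium genes with mutants below (2.97% to 3.5% of all genes) and 0 to 2 with mutants above all controls (1.61% to 2.47% of all genes), and a set median of -0.041 to -0.017. With the replicate block, 4 genes were called higher and 1 lower, and 0 in the set. Replicate numbers are not said to pair pups, and deviations of same-numbered arrays correlated by -0.012 to 0.16. Other ciliary genes gave 0 calls under every alternative run here. Rsph6a and Rsph14 stayed below 0 in all 19 fits that held them. Of 28 other named genes, 3 moved by more than the replicate SD under an alternative (Dnah3, Dnah7b and Dnaic2). Except where Wdr66 itself was left out, the cause of lost calls was not tested. A fit without an array also has fewer arrays per group, so it cannot tell what lost the call.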

Other observations

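The genes next to the 3 lowest members in the RefSeq gene order, chosen after the values were seen, differed as follows (mutant minus control, log2, SE). Beside Wdr66, Psmd9 differed by -0.014 ± 0.063 and Bcl7a by 0.073 ± 0.068. Beside Rsph6a, Sympk differed by -0.050 ± 0.062 and Dmwd by -0.013 ± 0.065. Beside Rsph14, Pcdh15 differed by -0.17 ± 0.073, with all arrays labelled mutant below all controls (1.79% of all genes), and Gnaz by -0.053 ± 0.063.

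Rsph3a and Rsph3b, stalk components of the radial spoke, are measured by 2 probe sets that name both. The first read 7.35, 7.40, 7.50 and 7.50 in the arrays labelled mutant, against 7.32, 7.60, 7.49 and 7.56 in the controls, and the other read 7.50, 7.53, 7.66 and 7.58 in the arrays labelled mutant, against 7.46, 7.68, 7.56 and 7.69 in the controls. The groups overlapped in both probe sets, with differences of -0.056 and -0.030. A pair of probe sets naming Dnah7a, Dnah7b and Dnah7c together differed by -0.076 and -0.0068.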
